A study of Mus musculus with 15 samples.

Results

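The TGF-beta and BMP signaling genes described here are 47 genes for ligands, latent binding proteins, receptors, SMAD proteins, their inhibitors and the ID target genes. They were chosen by name, with earlier results of these data known, and all 47 were found among the 26301 genes with counts. They were measured by RNA-seq in 3T3-L1 cells, a mouse preadipocyte line, on day 2 of adipocyte differentiation induced with insulin, dexamethasone and IBMX. In the knockdown set, 3 libraries of control cells with the empty short hairpin vector (sh-Empty) were compared with 3 libraries of cells with a hairpin against Jmjd1a (sh-Jmjd1a, JMJD1A-KD). In the rescue set, all cells carried the hairpin against Jmjd1a. In this set 3 libraries each came from cells with a LacZ control, with wild-type JMJD1A, JMJD1A(WT), or with the mutant of the iron-coordination site, JMJD1A(H1122A). Per the study, both forms of JMJD1A carried changes for resistance to the hairpin, silent in the wild-type form. JMJD1A is a demethylase of histone H3 lysine 9. All lines were made by retroviral infection and drug selection, and the sources do not say whether replicates came from separate infections. The p-values therefore set differences against the spread between these libraries, and may not cover variation between separately infected lines.

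Kdm3a, the gene of JMJD1A, had 171.1 to 184.8 CPM in sh-Empty cells and 127.8 to 138.3 CPM in sh-Jmjd1a cells, where CPM is the usual count scaled to the library size. It had 116.5 to 121.6 CPM with LacZ, 1639 to 1768 CPM with JMJD1A(WT) and 2103 to 2288 CPM with JMJD1A(H1122A), so the mutant transcript was the more abundant. Library totals ranged from 11437058 to 25523148 counts, and the highest was JMJD1A(WT) replicate 3. The 6 listed adipocyte markers summed to 4997 to 5099 CPM in sh-Empty cells and to 2617 to 2759 CPM in sh-Jmjd1a cells. Their sums were 3292 to 3373 CPM with LacZ, 3723 to 4064 CPM with JMJD1A(WT) and 2557 to 2665 CPM with JMJD1A(H1122A), and the part of these markers in the differences described here was not tested. The 8 preadipocyte and fibroblast markers summed to at least 12641 CPM in every library, whereas the 4 endothelial markers stayed under 1 CPM in sum. In such bulk libraries, fewer cells of a type and less RNA per cell cannot be told apart.

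TGF-beta family ligands are secreted dimers that bring together type I and type II receptor kinases. TGF-beta and activin receptors phosphorylate SMAD2 and SMAD3, BMP receptors phosphorylate SMAD1, SMAD5 and SMAD9, and both kinds of SMAD enter the nucleus with SMAD4. TGF-beta is secreted bound to some of the latent TGF-beta binding proteins, which store it in the matrix. Secreted antagonists such as gremlin, noggin and follistatin hold back BMPs or activins. In fat precursors TGF-beta and activin are known to hold back adipocyte differentiation, and BMPs are known to favor commitment to it. The ID proteins, whose genes are classical BMP targets, bind basic helix-loop-helix factors and keep them off DNA.

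The stretches before the transcription start of Tgfb2, Grem1 and Id2 are shown because these genes carried the largest differences among the ligands, the secreted antagonists and the ID genes in the comparisons below. Each is 250 bases long, written 5′ to 3′ on the strand of the gene, and ends just before the start given by RefSeq for GRCm38.p6. Each was matched exactly to NCBIM37, the build of the counts (mm9), whose coordinates are given. Capitals mark 3 motifs known to be bound by SMAD proteins, searched on both strands: GGCGCC, a GC-rich motif of BMP-activated SMADs; CAGAC, the SMAD box (GTCTG on the other strand); and GTCTAGAC, a palindrome. Neighboring motifs can share an end letter.
Tgfb2, chr1:188529869-188530118, minus strand: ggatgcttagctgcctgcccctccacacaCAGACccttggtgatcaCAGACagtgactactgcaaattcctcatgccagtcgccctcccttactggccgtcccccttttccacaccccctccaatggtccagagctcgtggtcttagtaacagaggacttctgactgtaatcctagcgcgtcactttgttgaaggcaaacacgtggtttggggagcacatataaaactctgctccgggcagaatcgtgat
Grem1, chr2:113598806-113599055, minus strand: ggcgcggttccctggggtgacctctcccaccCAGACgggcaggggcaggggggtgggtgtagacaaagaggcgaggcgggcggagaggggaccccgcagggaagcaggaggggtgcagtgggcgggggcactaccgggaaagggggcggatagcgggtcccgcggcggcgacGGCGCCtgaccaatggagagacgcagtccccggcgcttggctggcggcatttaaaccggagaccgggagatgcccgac
Id2, chr12:25780958-25781207, minus strand: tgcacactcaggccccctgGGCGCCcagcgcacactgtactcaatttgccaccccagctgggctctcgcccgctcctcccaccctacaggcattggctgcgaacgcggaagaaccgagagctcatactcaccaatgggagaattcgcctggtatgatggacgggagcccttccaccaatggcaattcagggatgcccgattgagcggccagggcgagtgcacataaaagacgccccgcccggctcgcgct

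The Tgfb2 stretch held CAGAC at positions -221 and -204 from the start and no GGCGCC. The Grem1 stretch held CAGAC at -219 and GGCGCC at -78, and the Id2 stretch held GGCGCC at -231 and no CAGAC. Over the 45 promoters listed for 35 of the members, GGCGCC was present in 13 (28.9%), CAGAC in 20 (44.4%) and GTCTAGAC in 0. Among all 32851 promoters of this length the shares were 9.6%, 42.2% and 0.2%. These are matches of letters, described without a test, and binding was not measured here. The GGCGCC matches of Ltbp4 at -184 and -169 are 1 site seen from neighboring starts. The shares were not matched for GC content.

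Levels were compared between genes only as RPKM, which divides CPM by the exon length in kilobases. Fstl1, which encodes a secreted follistatin-like glycoprotein, stood highest of all members, with 355 ± 6.78 RPKM in sh-Empty cells (SD, n = 3). Next came the co-receptor gene Tgfbr3 with 168 ± 2.37 RPKM and the ID gene Id1 with 136 ± 11.4 RPKM. Among the latent binding proteins, Ltbp2 had 99.1 ± 2.40 and Ltbp3 83.6 ± 0.967 RPKM. The ligand genes lay lower, with 17.5 ± 0.585 RPKM for Tgfb3, 15.8 ± 0.733 RPKM for Tgfb1 and 8.56 ± 0.831 RPKM for Inhba. Tgfbr2, the type II TGF-beta receptor gene, was the most abundant receptor at 63 ± 1.69 RPKM, and Smad3 was the most abundant SMAD gene at 22.6 ± 0.481 RPKM. The order was not the same in the other groups, which the plot of RPKM by role also shows. In sh-Jmjd1a cells Ltbp3, with 99.98 ± 2.72 RPKM, stood above Ltbp2, with 49 ± 4.01 RPKM, and the mean of Inhba, with 17.4 ± 2.53 RPKM, was above that of Tgfb3, with 15.1 ± 0.357 RPKM.

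**Figure D1:**
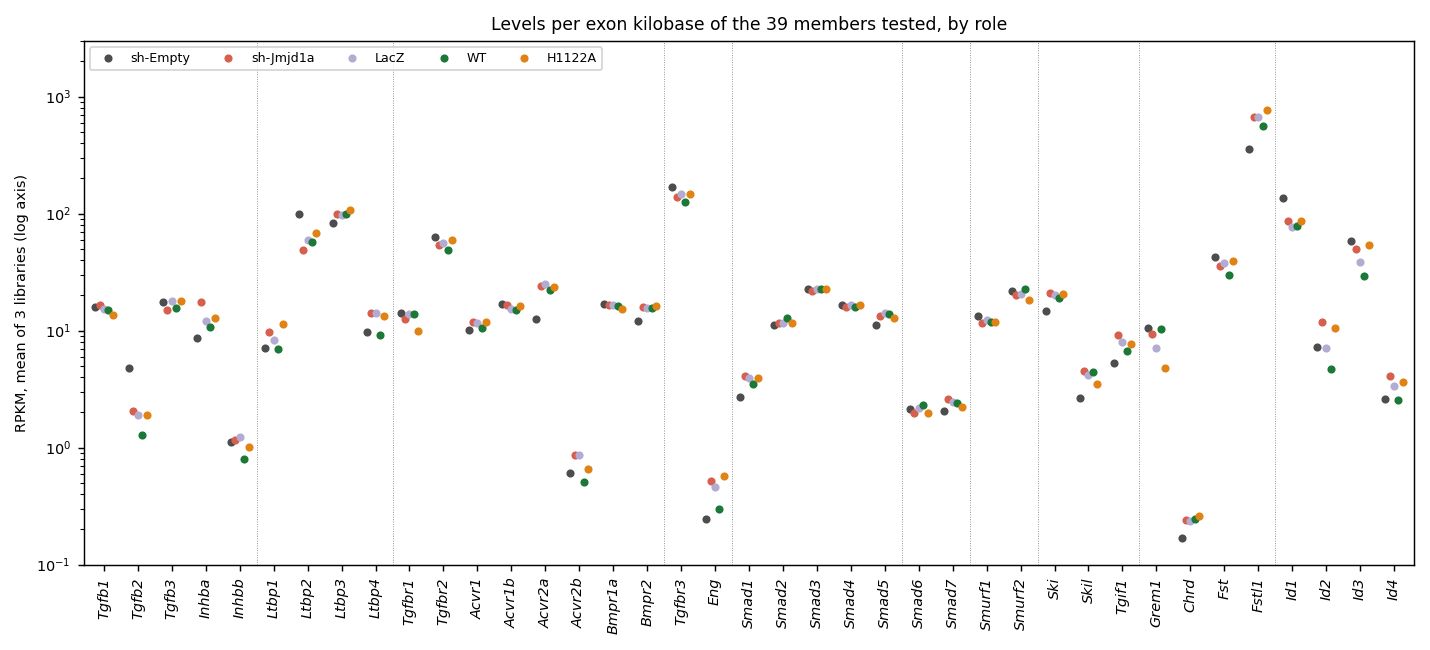
Mean RPKM of 3 libraries on a log axis for the 39 tested members, ordered by role with dotted lines between roles, and 1 color for each of the 5 groups. Fstl1 lies highest in every group and Chrd lowest.

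The other 8 members had too few counts to be tested. Bmp4 and Bmp7 had 0 counts in all 15 libraries, Nog and Bmp2 had 1 count in 1 library each, and Bmp6 and Fstl3 had at most 2 and 4 counts. The BMP ligands listed among the members were therefore not detectable at this depth beyond single counts. Smad9 had 0 to 10 counts per library. Acvrl1, a type I receptor gene best known in endothelial cells, had 11, 8 and 24 counts with JMJD1A(WT), against 1, 3 and 2 with LacZ and 0, 1 and 2 with JMJD1A(H1122A), and 4, 9 and 8 in sh-Empty against 3, 4 and 2 in sh-Jmjd1a cells. It did not pass the count filter, and in a fit without that filter its log2 fold change for JMJD1A(WT) against LacZ was 2.50 (SE 0.71, adjusted p = 0.00917). Its exons overlap those of Gm16031 on the other strand.

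The 39 remaining members were tested in both sets by the quasi-likelihood test of edgeR, and p-values were adjusted over all genes tested by the Benjamini-Hochberg method, with a threshold of 0.05. In sh-Jmjd1a against sh-Empty cells, 12 of 39 members (30.8%) were called lower and 17 (43.6%) higher, where 23.9% of the 12272 genes tested were called lower and 22.3% higher. With JMJD1A(WT) against LacZ, 11 members (28.2%) were lower and 1 (2.56%) higher, against 4.52% and 4.98% of 12557 genes. With JMJD1A(H1122A) against JMJD1A(WT), 4 members (10.3%) were lower and 13 (33.3%) higher, against 11.7% and 12.1% of all genes. With JMJD1A(H1122A) against LacZ, 4 (10.3%) were lower and 6 (15.4%) higher, against 4.46% and 4.78%. The 3 rescue comparisons share libraries with each other, but not with the knockdown comparison. All 18 members called in a rescue comparison were also among the 29 called in the knockdown, while of the 3322 genes tested in both sets and called in a rescue comparison, 65.2% were called in the knockdown.

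**Figure D2:**
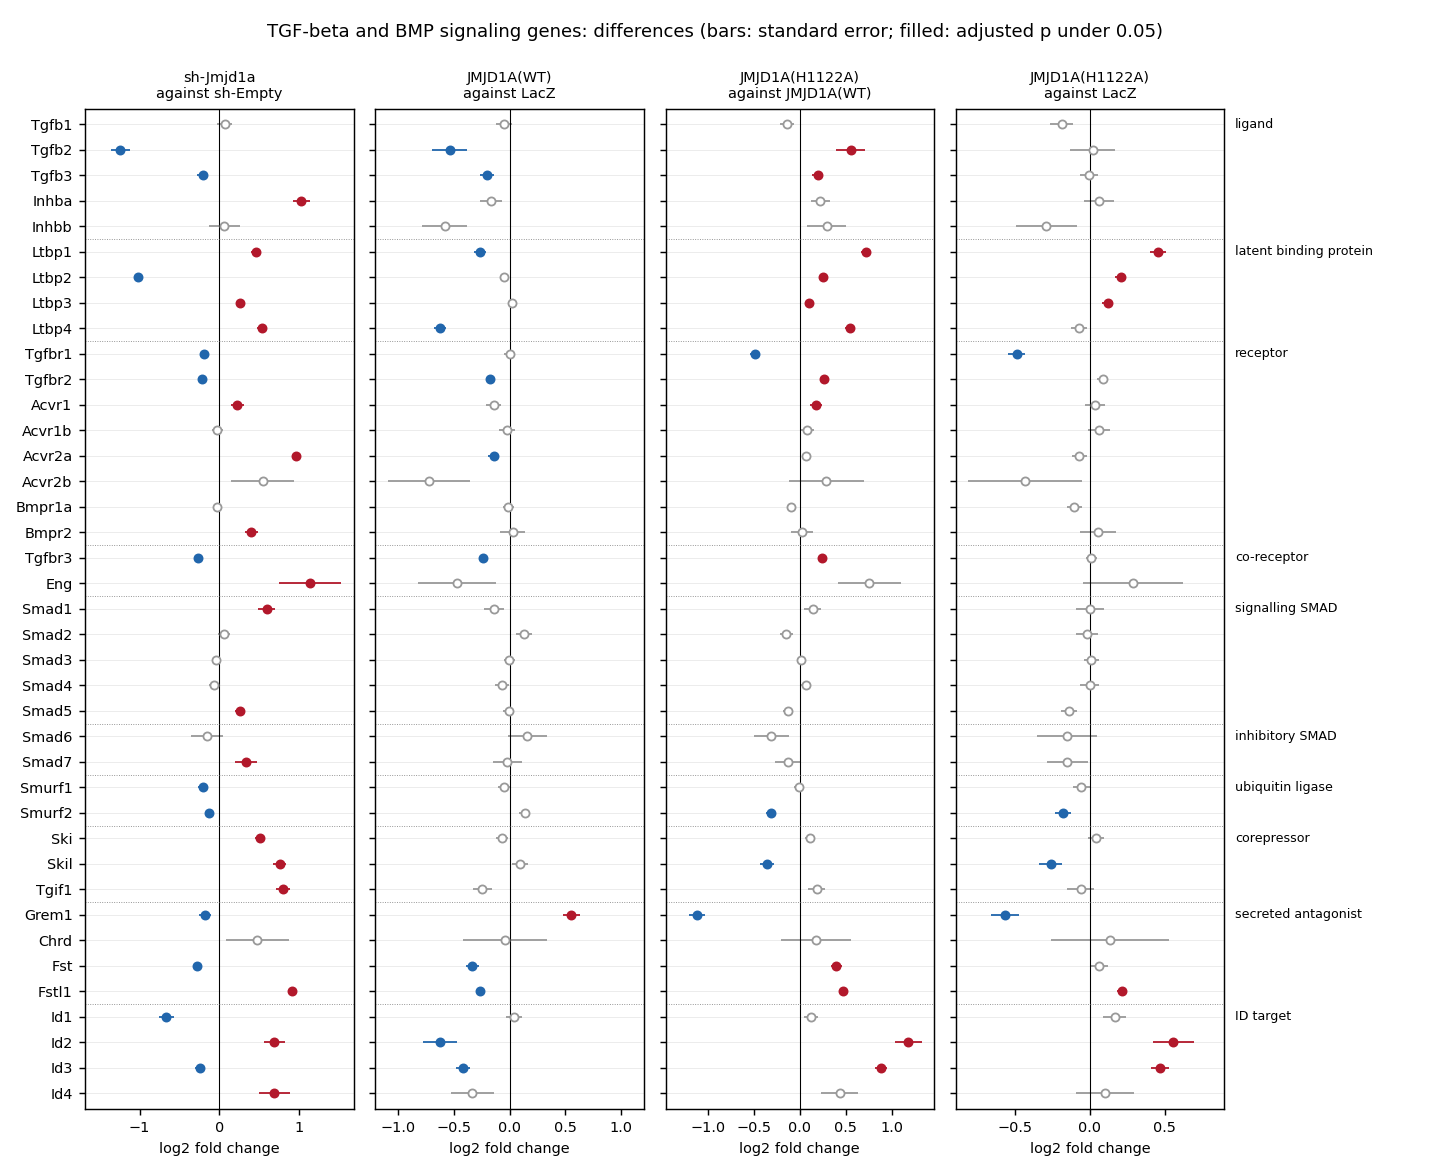
Log2 fold change of each of the 39 tested members, ordered by role, in the 4 comparisons, with 1 standard error as a bar and a scale of its own in each panel. Blue points were called lower and red points higher at an adjusted p under 0.05, and open gray points were not called; blue points prevail with JMJD1A(WT) against LacZ (11 of 12 called) and red points with JMJD1A(H1122A) against JMJD1A(WT) (13 of 17 called).

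The calls of the knockdown and of the JMJD1A(WT) rescue, which share no libraries, combined in 3 ways. Id2, Ltbp1, Ltbp4, Fstl1 and Acvr2a were higher in sh-Jmjd1a cells and lower with JMJD1A(WT), 5 of 39 members, while 2.43% of the 12202 genes tested in both sets had these calls. Tgfb2, Tgfb3, Tgfbr2, Tgfbr3, Fst and Id3 were lower in sh-Jmjd1a cells and also lower with JMJD1A(WT), 6 of 39, while 0.803% of all genes had these calls. Grem1 alone was lower in sh-Jmjd1a cells and higher with JMJD1A(WT), against 2.75% of all genes, and 0 members were higher in both, against 0.934%. The Grem1 call in the knockdown was close to the threshold and was lost in several settings given with its values below, and without JMJD1A(WT) replicate 2 Smurf2 had the same pair of calls. The JMJD1A(WT) calls of Tgfb2, Tgfb3 and Acvr2a (adjusted p 0.0157, 0.0300 and 0.0480) were likewise lost in settings given with their values below. For the 6 members lower in both comparisons, levels in sh-Jmjd1a and in JMJD1A(WT) cells lie on the same side of their own controls.

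Among the ligand genes, Tgfb2 fell the most with the knockdown, Inhba rose and Tgfb1 was not called in any comparison. Tgfb2 (chromosome 1, 188447065 to 188529871), which encodes TGF-beta 2, had 22.5, 20.3 and 26.7 CPM in the 3 sh-Empty libraries and 9.68, 9.76 and 10.3 CPM in the 3 sh-Jmjd1a libraries. All knockdown libraries lay below all control libraries, 2.36-fold lower on average, with a log2 fold change of -1.24 (SE 0.12, adjusted p = 1.58e-09). In the rescue set it had 10.3, 8.64 and 8.34 CPM with LacZ, 5.95, 6.17 and 6.53 CPM with JMJD1A(WT) and 10.6, 9.26 and 7.80 CPM with JMJD1A(H1122A). The JMJD1A(WT) libraries were the lowest and did not overlap either other group, whereas LacZ and mutant libraries overlapped. The log2 fold change was -0.54 (SE 0.15, adjusted p = 0.0157) for JMJD1A(WT) against LacZ and 0.56 (SE 0.16, adjusted p = 0.00663) for JMJD1A(H1122A) against JMJD1A(WT). The first was not called without replicate 1 of LacZ or replicate 1 of JMJD1A(WT) (log2 fold change -0.51 to -0.44, adjusted p 0.0520 to 0.114) and the second without JMJD1A(H1122A) replicate 1 (log2 fold change 0.45, adjusted p 0.0780).

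Tgfb3, for TGF-beta 3, was likewise lower in sh-Jmjd1a cells and, within the rescue set, lowest with JMJD1A(WT), with smaller differences than Tgfb2. It had 56.9, 59.9 and 60.7 CPM in sh-Empty and 51.8, 49.8 and 51.9 CPM in sh-Jmjd1a cells, and 64.3, 56.5 and 60.4 CPM, 51.9, 54.2 and 52.1 CPM and 60.9, 60.1 and 59.5 CPM with LacZ, JMJD1A(WT) and JMJD1A(H1122A). The groups did not overlap in the knockdown, where the log2 fold change was -0.21 (SE 0.064, adjusted p = 0.00732), nor between JMJD1A(WT) and either other rescue group. The log2 fold change was -0.20 (SE 0.062, adjusted p = 0.0300) for JMJD1A(WT) against LacZ, which was not called with DESeq2 (adjusted p 0.0501) or without replicate 1 or 3 of LacZ or replicate 1 or 3 of JMJD1A(WT) (log2 fold change -0.20 to -0.15, adjusted p 0.0834 to 0.177). The log2 fold change was 0.19 (SE 0.063, adjusted p = 0.0203) for JMJD1A(H1122A) against JMJD1A(WT), not called without replicate 1 or 2 of JMJD1A(H1122A) or replicate 1 or 3 of JMJD1A(WT) (log2 fold change 0.18 to 0.19, adjusted p 0.0544 to 0.0780).

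Inhba (chromosome 13, 16103684 to 16119044) encodes the inhibin beta A chain, 2 of which form activin A. It had 15.3, 18.6 and 16.9 CPM in sh-Empty and 28.9, 35.7 and 38.6 CPM in sh-Jmjd1a cells. The knockdown libraries were all higher, 2.04-fold on average, with a log2 fold change of 1.03 (SE 0.11, adjusted p = 5.25e-09). Levels with LacZ (27.8, 20.7 and 23.7 CPM), JMJD1A(WT) (19.3, 20.6 and 23.5 CPM) and JMJD1A(H1122A) (25, 25.9 and 24.5 CPM) were not called different. The mutant libraries were above the JMJD1A(WT) libraries, with a log2 fold change of 0.23 (SE 0.10, adjusted p = 0.0995), and were called so without JMJD1A(WT) replicate 3 (log2 fold change 0.34, adjusted p 0.0351). Inhbb, for the beta B chain, had 3.05 to 6.37 CPM over all libraries and was not called. Its 3 JMJD1A(WT) libraries lay below the 3 LacZ libraries (log2 fold change -0.58, adjusted p = 0.0554), a call made in the fit of all 15 libraries (adjusted p = 0.0441) and without LacZ replicate 3 (log2 fold change -0.70, adjusted p 0.0377). Tgfb1 had 32.5 to 50.6 CPM over all libraries.

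The latent binding protein genes did not share 1 direction in the knockdown. Ltbp2 (chromosome 12, 86124162 to 86217482), whose product binds microfibrils, had 822, 789 and 824 CPM in sh-Empty and 414, 364 and 426 CPM in sh-Jmjd1a cells. It was 2.02-fold lower on average without overlap, with a log2 fold change of -1.02 (SE 0.046, adjusted p = 5.95e-16). JMJD1A(WT) libraries, with 469.7, 469 and 463 CPM, overlapped the LacZ libraries, with 508, 456 and 484 CPM, and the log2 fold change was -0.046 (SE 0.038, adjusted p = 0.558). JMJD1A(H1122A) libraries were higher than both, with 577, 547 and 545 CPM, with a log2 fold change of 0.25 (SE 0.038, adjusted p = 1.17e-06) against JMJD1A(WT) and 0.21 (SE 0.038, adjusted p = 1.73e-04) against LacZ. Exons of Ltbp2 overlap those of D030025P21Rik on the other strand, and the strand setting of the counting is not given in the sources used here.

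Ltbp1 and Ltbp4 were higher in the knockdown. Ltbp1 (chromosome 17, 75404908 to 75791852), whose product carries latent TGF-beta into the matrix, had 77.3, 75.2 and 76.1 CPM in sh-Empty and 100.3, 106 and 107 CPM in sh-Jmjd1a cells, with no overlap and a log2 fold change of 0.45 (SE 0.054, adjusted p = 5.48e-08). In the rescue set the groups stood apart from each other, with 74.8, 75.4 and 73.2 CPM for JMJD1A(WT), 88, 89.8 and 90.0 CPM for LacZ and 128, 122 and 117 CPM for JMJD1A(H1122A). The log2 fold changes were -0.26 (SE 0.052, adjusted p = 2.85e-04) for JMJD1A(WT) against LacZ, 0.72 (SE 0.051, adjusted p = 2.05e-15) for the mutant against JMJD1A(WT) and 0.45 (SE 0.051, adjusted p = 7.96e-09) for the mutant against LacZ. The mutant was thus above the LacZ control, and JMJD1A(WT) below it.

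Ltbp4 (chromosome 7, 28090155 to 28122711), needed for elastic fibers, had 63.1, 68.2 and 58.1 CPM in sh-Empty and 94.5, 90.5 and 87.7 CPM in sh-Jmjd1a cells. The knockdown libraries were all higher, with a log2 fold change of 0.53 (SE 0.062, adjusted p = 4.36e-08). The LacZ libraries had 93.7, 87 and 91.7 CPM, with JMJD1A(WT) 57.8, 57.1 and 61.3 CPM and with JMJD1A(H1122A) 83.4, 86.7 and 89.2 CPM. JMJD1A(WT) libraries were below both other groups, with a log2 fold change of -0.62 (SE 0.056, adjusted p = 7.32e-12) against LacZ, and the mutant was above JMJD1A(WT), by a log2 fold change of 0.55 (SE 0.057, adjusted p = 1.70e-10) and overlapped LacZ. Ltbp3, whose exons overlap those of another gene, had 432, 440.4 and 432 CPM in sh-Empty and 533, 505 and 521 CPM in sh-Jmjd1a cells, with a log2 fold change of 0.26 (SE 0.038, adjusted p = 2.25e-06). Its mutant libraries, with 556, 540.2 and 564 CPM, were just above those of JMJD1A(WT), with 522, 508 and 517 CPM, and of LacZ, with 521, 512 and 495 CPM. The log2 fold changes were 0.10 (SE 0.035, adjusted p = 0.0318) and 0.12 (SE 0.036, adjusted p = 0.0252), and the calls were lost without replicate 1 or 3 of JMJD1A(H1122A) or replicate 1 or 2 or 3 of JMJD1A(WT) (log2 fold change 0.088 to 0.11, adjusted p 0.0548 to 0.106) and without replicate 2 or 3 of LacZ or replicate 1 or 3 of JMJD1A(H1122A) (log2 fold change 0.10 to 0.12, adjusted p 0.0533 to 0.176), respectively.

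Among the TGF-beta receptor genes, the most abundant ones were slightly lower in sh-Jmjd1a cells. Tgfbr2 had 525, 499 and 505 CPM in sh-Empty and 448, 437 and 432 CPM in sh-Jmjd1a cells, with no overlap, with a log2 fold change of -0.21 (SE 0.038, adjusted p = 3.60e-05). Within the rescue set it was lowest with JMJD1A(WT), with 404, 386 and 404 CPM, against 461, 437 and 449 CPM with LacZ and 473, 485 and 472 CPM with JMJD1A(H1122A), with a log2 fold change of -0.17 (SE 0.037, adjusted p = 6.09e-04) against LacZ and 0.26 (SE 0.037, adjusted p = 2.50e-07) for the mutant against JMJD1A(WT). Tgfbr3 encodes betaglycan, a co-receptor that presents TGF-beta 2 to the type II receptor, and it was also the lowest with JMJD1A(WT) in that set. It had 1112, 1081 and 1097 CPM in sh-Empty and 886, 908 and 934 CPM in sh-Jmjd1a cells, with a log2 fold change of -0.27 (SE 0.036, adjusted p = 3.55e-07). With LacZ it had 1015, 919.6 and 961 CPM, with JMJD1A(WT) 841, 806 and 815 CPM and with JMJD1A(H1122A) 1006, 971 and 937 CPM, so the JMJD1A(WT) libraries were again below the other rescue libraries. The log2 fold changes were -0.23 (SE 0.036, adjusted p = 3.83e-06) against LacZ and 0.24 (SE 0.036, adjusted p = 7.90e-07) for the mutant against JMJD1A(WT).

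Tgfbr1, the type I TGF-beta receptor gene (chromosome 4, 47366094 to 47427803), was lower with the mutant than in the other rescue cells. It had 65.1, 63.4 and 64 CPM with JMJD1A(H1122A), against 86.2, 90.1 and 93 CPM with JMJD1A(WT) and 88.7, 91.5 and 90.0 CPM with LacZ. Mutant libraries lay below the other rescue libraries, with a log2 fold change of -0.49 (SE 0.055, adjusted p = 1.47e-09) against JMJD1A(WT) and -0.49 (SE 0.056, adjusted p = 1.32e-08) against LacZ, and the JMJD1A(WT) and LacZ libraries overlapped. In the knockdown set it had 89.4, 92.4 and 95.8 CPM in sh-Empty and 85.6, 78.5 and 80.3 CPM in sh-Jmjd1a cells, with a log2 fold change of -0.19 (SE 0.056, adjusted p = 0.00676), and this call was lost without sh-Empty replicate 3 (log2 fold change -0.16, adjusted p 0.0554).

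Of the activin and BMP receptor genes, Acvr2a stood out in the knockdown. Acvr2a (chromosome 2, 48669629 to 48758789), a type II receptor gene for activins and BMPs, had 67.4, 74.8 and 70.2 CPM in sh-Empty and 136, 138 and 139 CPM in sh-Jmjd1a cells, 1.95-fold higher without overlap, with a log2 fold change of 0.96 (SE 0.053, adjusted p = 7.88e-15). With LacZ it had 134, 149 and 142 CPM, with JMJD1A(WT) 123, 126 and 134 CPM and with JMJD1A(H1122A) 134, 137 and 132 CPM. These 3 groups overlapped, and the log2 fold change of JMJD1A(WT) against LacZ, -0.14 (SE 0.048, adjusted p = 0.0480), was not called with DESeq2 or with only those groups in the fit (adjusted p 0.0626 to 0.0671), nor without replicate 2 or 3 of LacZ or replicate 1 or 2 of JMJD1A(WT) (log2 fold change -0.14 to -0.11, adjusted p 0.118 to 0.274). Exons of Acvr2a overlap those of Orc4 on the other strand. Bmpr2, the BMP type II receptor gene, was higher in the knockdown, with 44.9, 42.9 and 40.1 CPM in sh-Empty and 55.5, 50.0 and 62.8 CPM in sh-Jmjd1a cells (log2 fold change 0.40, SE 0.078, adjusted p = 9.50e-05). It was not called in the rescue set.

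Acvr1, a type I receptor gene, had 42.5, 52.9 and 51.9 CPM in sh-Empty and 53.3, 62.5 and 56.9 CPM in sh-Jmjd1a cells, with a log2 fold change of 0.23 (SE 0.078, adjusted p = 0.0187). With LacZ it had 56.7, 53.9 and 58.3 CPM, with JMJD1A(WT) 50.9, 52.2 and 50.3 CPM and with JMJD1A(H1122A) 61.5, 58 and 53.1 CPM, and the mutant was above JMJD1A(WT), by a log2 fold change of 0.18 (SE 0.065, adjusted p = 0.0416). The knockdown call was lost without replicate 1 of sh-Empty or replicate 2 of sh-Jmjd1a (log2 fold change 0.14 to 0.16, adjusted p 0.112 to 0.159). The mutant call was lost with DESeq2 and in the fit of all 15 libraries (adjusted p 0.0532 to 0.0709) and without replicate 1 or 2 of JMJD1A(H1122A) or replicate 1 or 3 of JMJD1A(WT) (log2 fold change 0.13 to 0.18, adjusted p 0.0827 to 0.257). Eng, for the co-receptor endoglin, had only 0.603 to 1.59 CPM in sh-Empty and 1.53 to 2.56 CPM in sh-Jmjd1a cells. These overlapped, and the log2 fold change of 1.14 (SE 0.39, adjusted p = 0.0191) was not called without replicate 2 or 3 of sh-Empty or replicate 3 of sh-Jmjd1a (log2 fold change 0.88 to 0.94, adjusted p 0.0825 to 0.125); its exons overlap those of Fpgs and Ak1. Acvr1b, Acvr2b and Bmpr1a were not called in any comparison, and Bmpr1a had 94.2 to 110.1 CPM over all libraries.

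Smad2 and Smad3, for the SMADs of TGF-beta and activin signals, were not called in any comparison, while Smad1 and Smad5, for SMADs of BMP signals, were higher in sh-Jmjd1a cells. Smad3 had 128, 123 and 124 CPM in sh-Empty, 123, 115 and 127 CPM in sh-Jmjd1a, 129, 125 and 122 CPM in LacZ, 129.6, 128 and 118 CPM in JMJD1A(WT) and 133, 120.1 and 126 CPM in JMJD1A(H1122A) cells. All 5 groups overlapped, and the log2 fold changes were -0.039 in the knockdown (SE 0.050) and 0.015 for the mutant against JMJD1A(WT) (SE 0.050). Smad2 had 37.2 to 47.2 CPM and Smad4, for the shared partner, 55.7 to 65.7 CPM over all libraries, and neither was called in any comparison. Smad1 had 16, 16.1 and 15.2 CPM in sh-Empty and 24.1, 20.6 and 26.4 CPM in sh-Jmjd1a cells, higher without overlap, with a log2 fold change of 0.59 (SE 0.11, adjusted p = 3.54e-05). Smad5, its close relative, had 79.4, 91.5 and 76.8 CPM and 101, 91 and 104 CPM, which overlapped, with a log2 fold change of 0.26 (SE 0.064, adjusted p = 0.00145). Neither was called in the rescue set with all libraries, and Smad5 was called lower with the mutant than with JMJD1A(WT) without JMJD1A(H1122A) replicate 1 (log2 fold change -0.17, adjusted p 0.0341).

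The inhibitory SMAD genes gave no firm call. Smad7, which blocks the receptors and is itself a TGF-beta target, had 9.43, 8.36 and 9.97 CPM in sh-Empty and 12.7, 11.5 and 11 CPM in sh-Jmjd1a cells, with a log2 fold change of 0.33 (SE 0.14, adjusted p = 0.0468). The call was lost with DESeq2, without the filter or with the replicate number in the fit (adjusted p 0.0563 to 0.0837), and without replicate 1 or 2 or 3 of sh-Empty or replicate 1 or 2 of sh-Jmjd1a (log2 fold change 0.27 to 0.40, adjusted p 0.0521 to 0.156). Smad6 had 3.92 to 8.86 CPM over all libraries and was not called.

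The SMURF ubiquitin ligases mark SMADs and receptors for breakdown. Smurf2 had 110.3, 117 and 109 CPM with JMJD1A(H1122A), against 148, 135 and 136 CPM with JMJD1A(WT) and 125, 125 and 131 CPM with LacZ. Within the rescue set the mutant libraries were the lowest and the JMJD1A(WT) libraries the highest without overlap, with log2 fold changes of -0.32 (SE 0.049, adjusted p = 2.16e-06) for the mutant against JMJD1A(WT), -0.18 (SE 0.050, adjusted p = 0.0158) for the mutant against LacZ and 0.14 (SE 0.048, adjusted p = 0.0637) for JMJD1A(WT) against LacZ. The call against LacZ was lost without replicate 3 of LacZ or replicate 1 or 3 of JMJD1A(H1122A) (log2 fold change -0.17 to -0.15, adjusted p 0.0738 to 0.105), and JMJD1A(WT) was called above LacZ without JMJD1A(WT) replicate 2 (log2 fold change 0.16, adjusted p 0.0461). In the knockdown set Smurf2 had 129, 133 and 142 CPM in sh-Empty and 127, 118 and 124 CPM in sh-Jmjd1a cells, with a log2 fold change of -0.13 (SE 0.050, adjusted p = 0.0337), lost with DESeq2 or with the replicate number in the fit (adjusted p 0.0583 to 0.0934) and without replicate 2 or 3 of sh-Empty or replicate 2 of sh-Jmjd1a (log2 fold change -0.13 to -0.092, adjusted p 0.0771 to 0.231). Smurf1 had 87.8, 82.1 and 85.5 CPM and 73.8, 73.1 and 74.2 CPM in these groups, lower without overlap, with a log2 fold change of -0.21 (SE 0.056, adjusted p = 0.00287), and was not called in the rescue set.

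The 3 corepressor genes, whose products hold SMAD complexes silent, were all higher in sh-Jmjd1a cells. Skil, for SnoN, had 25.9, 24.9 and 26.7 CPM in sh-Empty and 42.9, 42.1 and 46 CPM in sh-Jmjd1a cells, 1.69-fold higher, with a log2 fold change of 0.75 (SE 0.078, adjusted p = 4.85e-09). It had 42.8, 38.7 and 39.5 CPM with LacZ, with JMJD1A(WT) 41.3, 42.1 and 44.9 CPM and with JMJD1A(H1122A) 33, 33.3 and 34.8 CPM. Mutant libraries lay below the other rescue libraries, with a log2 fold change of -0.36 (SE 0.074, adjusted p = 2.38e-04) against JMJD1A(WT) and -0.26 (SE 0.076, adjusted p = 0.0216) against LacZ, and the latter call was lost without replicate 1 of LacZ or replicate 1 or 2 of JMJD1A(H1122A) (log2 fold change -0.25 to -0.22, adjusted p 0.0756 to 0.112). Tgif1 had 18.2, 17.9 and 17.4 CPM in sh-Empty and 32.9, 29.6 and 30.6 CPM in sh-Jmjd1a cells (log2 fold change 0.80, SE 0.091, adjusted p = 2.64e-08). Its JMJD1A(WT) libraries, with 21.6, 23.1 and 23.2 CPM, lay below the LacZ libraries, with 26.7, 28.3 and 25.7 CPM, but the difference was called only in the fit of all 15 libraries (adjusted p = 0.0490) and not in the rescue set alone (log2 fold change -0.24, adjusted p = 0.0642). Ski had 83.7, 82.5 and 79.6 CPM in sh-Empty and 124, 116 and 109 CPM in sh-Jmjd1a cells (log2 fold change 0.50, SE 0.055, adjusted p = 1.45e-08). It was not called in the rescue set with all libraries, and was called higher with the mutant than with JMJD1A(WT) without JMJD1A(WT) replicate 3 (log2 fold change 0.19, adjusted p 0.0138).

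Grem1 (chromosome 2, 113586321 to 113598803) encodes gremlin 1, a secreted BMP antagonist, and was the single tested member higher with JMJD1A(WT). It had 31.3, 28.1 and 29.2 CPM with LacZ, 42, 39.7 and 46.6 CPM with JMJD1A(WT) and 20.8, 19.8 and 19.3 CPM with JMJD1A(H1122A). The groups stood apart, with JMJD1A(WT) above LacZ and the mutant below it. The log2 fold changes were 0.55 (SE 0.077, adjusted p = 6.02e-07) for JMJD1A(WT) against LacZ, -1.12 (SE 0.086, adjusted p = 2.24e-14) for the mutant against JMJD1A(WT), a 2.17-fold difference, and -0.56 (SE 0.094, adjusted p = 2.88e-05) for the mutant against LacZ. In the knockdown set it had 41, 45 and 44.6 CPM in sh-Empty and 41.3, 37.2 and 37.2 CPM in sh-Jmjd1a cells, which overlapped, with a log2 fold change of -0.18 (SE 0.074, adjusted p = 0.0492). This last call was lost with RLE scaling, DESeq2, either other filter, the legacy method, the replicate number in the fit or all 15 libraries in 1 fit (adjusted p 0.0502 to 0.126), and without replicate 2 or 3 of sh-Empty or replicate 2 or 3 of sh-Jmjd1a (log2 fold change -0.16 to -0.15, adjusted p 0.133 to 0.162).

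Fstl1 (chromosome 16, 37776959 to 37836600), a secreted glycoprotein gene known to be active in preadipocytes, had 1710.0, 1744 and 1776 CPM in sh-Empty and 3332, 3252 and 3255 CPM in sh-Jmjd1a cells. It was 1.88-fold higher in the knockdown, with a spread between libraries far smaller than the difference (log2 fold change 0.91, SE 0.033, adjusted p = 7.58e-19). With LacZ it had 3332, 3235 and 3288 CPM, with JMJD1A(WT) 2715, 2748 and 2748 CPM and with JMJD1A(H1122A) 3881, 3833 and 3690.0 CPM, and these groups did not overlap. JMJD1A(WT) was below LacZ, with a log2 fold change of -0.26 (SE 0.030, adjusted p = 6.68e-09), and the mutant was above JMJD1A(WT), by a log2 fold change of 0.47 (SE 0.030, adjusted p = 5.20e-17) and above LacZ, with a log2 fold change of 0.21 (SE 0.030, adjusted p = 1.81e-06). The 6 adipocyte markers were called in the opposite direction to Fstl1 in each of the 4 comparisons, and their part in these differences was not tested.

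Fst, for the activin antagonist follistatin, was lower in sh-Jmjd1a cells and, within the rescue set, lowest with JMJD1A(WT). It had 115, 115 and 116 CPM in sh-Empty and 96.6, 96.2 and 91.6 CPM in sh-Jmjd1a cells, with a log2 fold change of -0.28 (SE 0.051, adjusted p = 3.93e-05). Its LacZ libraries had 90.2, 106 and 108 CPM, with JMJD1A(WT) 76, 83.2 and 81.3 CPM and with JMJD1A(H1122A) 101, 110.5 and 105 CPM. All JMJD1A(WT) libraries were below all LacZ and mutant libraries, with a log2 fold change of -0.33 (SE 0.058, adjusted p = 3.75e-05) and, for the mutant against JMJD1A(WT), 0.40 (SE 0.058, adjusted p = 7.67e-07). In the knockdown set Fst and Inhba, an activin chain, thus moved in opposite directions. Chrd, for the BMP antagonist chordin, had 0.566 to 2.04 CPM over all libraries and was not called.

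The ID genes split in the knockdown, with Id1 and Id3 lower and Id2 and Id4 higher. Id1 (chromosome 2, 152561987 to 152563146) had 152, 147 and 172 CPM in sh-Empty and 101, 112 and 85.6 CPM in sh-Jmjd1a cells. All knockdown libraries were lower, with a log2 fold change of -0.67 (SE 0.10, adjusted p = 3.77e-04). It was not called in the rescue set, where its libraries had 88.2, 89.9 and 90.2 CPM with LacZ, 100.1, 79.7 and 94.6 CPM with JMJD1A(WT) and 95.3, 93 and 113 CPM with JMJD1A(H1122A). Id3 (chromosome 4, 135699412 to 135701670) had 98.5, 101 and 114 CPM in sh-Empty and 92, 91.9 and 81.2 CPM in sh-Jmjd1a cells, a smaller decrease without overlap (log2 fold change -0.25, SE 0.062, adjusted p = 0.00145).

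In the rescue set Id3 had 66.2, 72.9 and 69.5 CPM with LacZ, 51, 54.6 and 51.2 CPM with JMJD1A(WT) and 91.3, 90.8 and 107 CPM with JMJD1A(H1122A). The groups did not overlap, with JMJD1A(WT) lowest and the mutant highest. The log2 fold changes of Id3 were -0.42 (SE 0.064, adjusted p = 4.29e-06) for JMJD1A(WT) against LacZ, 0.89 (SE 0.063, adjusted p = 1.53e-15) for the mutant against JMJD1A(WT) and 0.47 (SE 0.061, adjusted p = 2.46e-07) for the mutant against LacZ. Id2 (chromosome 12, 25778666 to 25780957) had the same order, with 10.1, 8.85 and 8.34 CPM for LacZ, 5.22, 7.11 and 5.64 CPM for JMJD1A(WT) and 13.5, 12.7 and 14.1 CPM for JMJD1A(H1122A), again with no overlap. Its log2 fold changes were -0.63 (SE 0.15, adjusted p = 0.00406), 1.18 (SE 0.14, adjusted p = 9.80e-09) and 0.56 (SE 0.14, adjusted p = 0.00503) in the same comparisons, so the mutant was 2.27-fold above JMJD1A(WT). In the knockdown set Id2 had 8.63, 10.3 and 8.93 CPM in sh-Empty and 15.2, 13.4 and 16.1 CPM in sh-Jmjd1a cells, higher without overlap (log2 fold change 0.69, SE 0.13, adjusted p = 7.35e-05), opposite to Id3.

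Id4, whose exons overlap those of A330033J07Rik on the other strand, had 5.02, 4.31 and 3.56 CPM in sh-Empty and 7.85, 6.37 and 6.29 CPM in sh-Jmjd1a cells, higher, with a log2 fold change of 0.69 (SE 0.19, adjusted p = 0.00414). In the rescue set it had 5.60, 6.09 and 5.02 CPM with LacZ, 3.97, 3.91 and 4.94 CPM with JMJD1A(WT) and 4.15, 6.49 and 7.37 CPM with JMJD1A(H1122A). It was not called there with all libraries, and it was called higher with the mutant than with JMJD1A(WT) without JMJD1A(H1122A) replicate 1 (log2 fold change 0.64, adjusted p 0.0233).

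**Figure D3:**
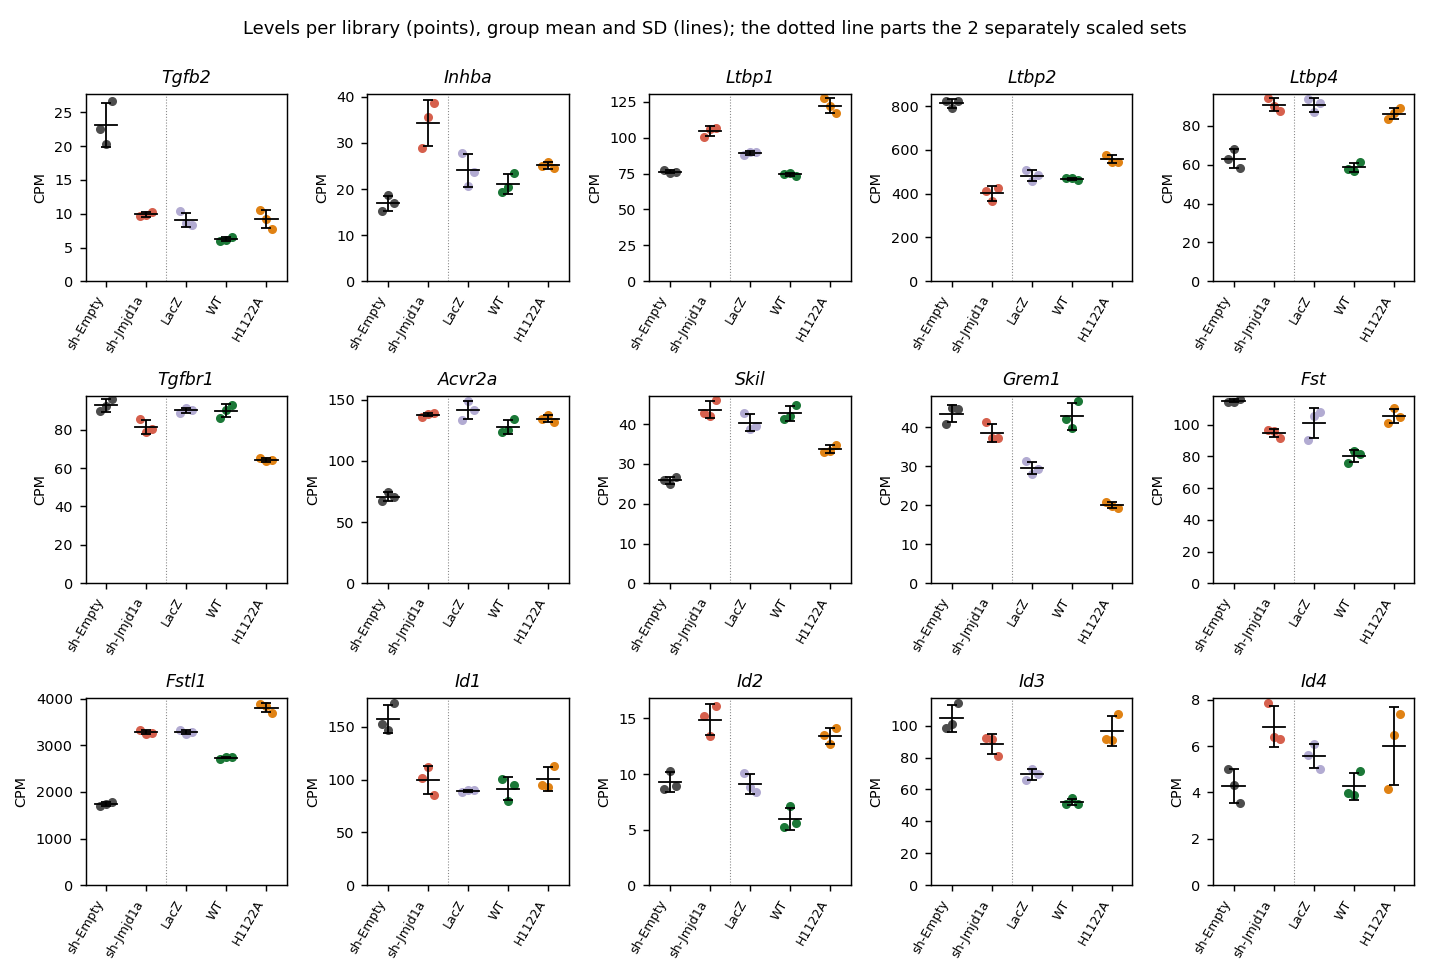
CPM of 15 members in each library (points), with the mean of 3 libraries and its SD (black lines), for sh-Empty and sh-Jmjd1a cells left of the dotted line and LacZ, JMJD1A(WT) and JMJD1A(H1122A) cells right of it, which were scaled apart; every axis starts at 0. Tgfb2, Ltbp2 and Id1 are lower and Inhba, Acvr2a, Skil and Fstl1 higher in sh-Jmjd1a cells, and Id2, Id3, Ltbp1 and Fstl1 run from lowest with JMJD1A(WT) to highest with JMJD1A(H1122A).

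Of the genes listed as TGF-beta targets, most were higher in sh-Jmjd1a cells. This list and those below were chosen with earlier results of these data known. Their shares are therefore descriptions and no independent test. Of 26 listed, 24 were tested, and 18 (75%) were called higher and 3 (12.5%) lower, where 22.3% and 23.9% of all genes were, with a median log2 fold change of 0.65 against -0.0032 for all genes. Collagen gene Col1a1 had 3122 ± 59.8 CPM against 1168 ± 35.6 CPM, log2 fold change 1.42, adjusted p = 1.29e-22 (SD, n = 3). Timp1, for an inhibitor of metalloproteases, had 71.6 ± 4.77 CPM against 28.1 ± 3.72 CPM, log2 fold change 1.35, adjusted p = 4.18e-14, and Ccn1, for a matricellular protein, had 93 ± 3.93 CPM against 36.9 ± 2.27 CPM, log2 fold change 1.33, adjusted p = 5.73e-16. The 3 that were lower were Bhlhe40 (log2 fold change -0.28), Sphk1 (-1.10) and Tgm2 (-2.28), a transglutaminase gene. The mean of Tgm2 in this comparison was under 5 CPM. In the rescue set Tgm2 had means of 0.531 CPM with JMJD1A(H1122A), 1.18 CPM with LacZ and 2.74 CPM with JMJD1A(WT). Col1a1, Col1a2 and Col3a1 are also among the 8 preadipocyte and fibroblast markers, of which 6 (75%) were called higher and 1 (12.5%) lower. The marker sum rose from at most 12855 CPM in sh-Empty to at least 21000 CPM in sh-Jmjd1a libraries. Mean levels rose from 1168 to 3122 CPM for Col1a1, from 3033 to 6068 CPM for Col1a2 and from 4794 to 8703 CPM for Col3a1. The marker that was lower, Dlk1, fell from 853 to 504.8 CPM. The part of these markers in the count was not tested.

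In the rescue set the same list did not move in 1 direction. With JMJD1A(WT) against LacZ, 5 of 24 (20.8%) were higher and 5 lower, where 4.98% and 4.52% of all genes were, with a median of -0.014. The list holds Sphk1, with 124 ± 1.72 CPM against 82.8 ± 2.46 CPM, log2 fold change 0.59, adjusted p = 2.75e-12, as well as Tgfbi, for a matrix protein named for its induction by TGF-beta, with 176 ± 6.90 CPM against 257 ± 7.64 CPM, log2 fold change -0.54, adjusted p = 6.07e-14. Col1a1 had a log2 fold change of -0.0042 and was not called. With JMJD1A(H1122A) against JMJD1A(WT), 10 (41.7%) were higher and 6 (25%) lower, against 12.1% and 11.7% of all genes, with a median of 0.11, and Lox, which crosslinks collagen, had 942 ± 13.6 CPM against 574 ± 18.3 CPM, log2 fold change 0.71, adjusted p = 2.61e-21. With JMJD1A(H1122A) against LacZ, 7 (29.2%) were higher and 3 (12.5%) lower, against 4.78% and 4.46% of all genes, with a median of 0.032, and Ccn1 had 135 ± 4.26 CPM against 78.9 ± 3.38 CPM, log2 fold change 0.77, adjusted p = 4.30e-15. Without LacZ replicate 1, 1 of the 3 lower calls was made.

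**Figure D4:**
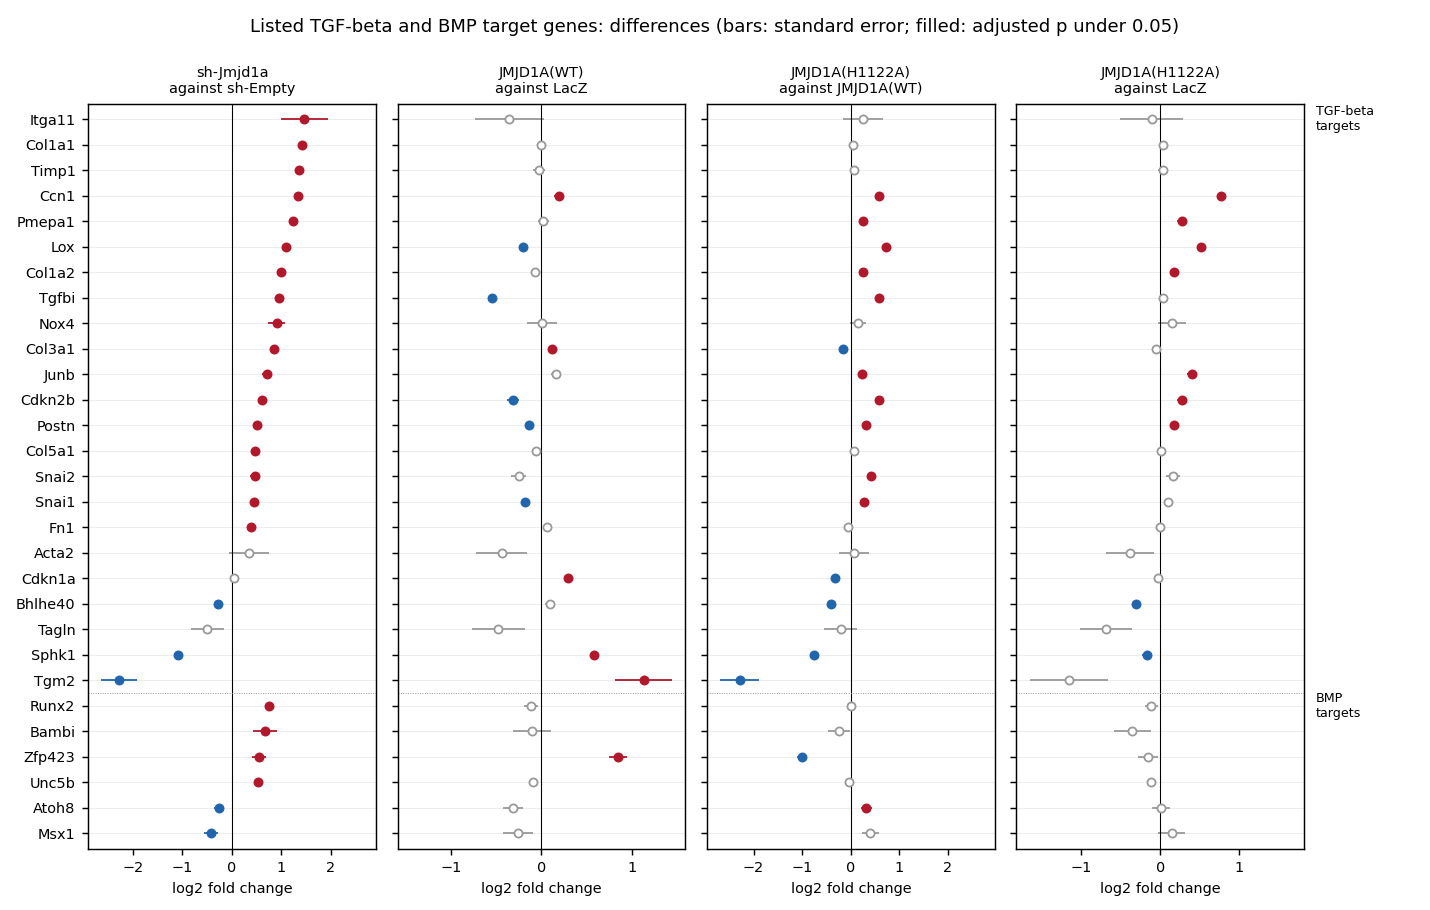
Log2 fold change of 23 of the 24 tested TGF-beta targets, ordered by their value in the knockdown, and of the 6 tested BMP targets below the dotted line, in the 4 comparisons, with 1 standard error as a bar and a scale of its own in each panel. Red points were called higher and blue points lower at an adjusted p under 0.05; in the knockdown panel 17 of the 23 TGF-beta targets shown are red, and in the JMJD1A(WT) panel 5 are red and 5 blue.

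Of 11 listed BMP targets, 6 were tested, and in the knockdown 4 were called higher and 2 lower, where 22.3% and 23.9% of all genes were. In sh-Jmjd1a cells Runx2, a bone regulator gene (30.4 ± 1.75 CPM against 17.9 ± 0.405 CPM, log2 fold change 0.76, adjusted p = 7.22e-08), Unc5b (138 ± 5.22 CPM against 96.2 ± 1.47 CPM, log2 fold change 0.52, adjusted p = 1.08e-09), Zfp423 (13.8 ± 1.98 CPM against 9.47 ± 0.689 CPM, log2 fold change 0.55, adjusted p = 0.00144) and Bambi (log2 fold change 0.67) were higher, and Atoh8 (-0.26) and Msx1 (-0.42) lower. The 2 lower calls became 0 without sh-Jmjd1a replicate 3 and 1 without any other of the 6 libraries. Of the 4 higher, Bambi had only 3.65 ± 0.464 CPM against 2.28 ± 0.184 CPM (adjusted p = 0.0284). It is also in the list of other receptors below, where 2 higher calls became 1 when single libraries were left out. With JMJD1A(WT) against LacZ 1 of the 6 (16.7%) was higher and 0 lower, against 4.98% and 4.52% of all genes. This was Zfp423, a preadipocyte factor gene, with 25.8 ± 1.47 CPM against 14.4 ± 1.74 CPM, log2 fold change 0.85, adjusted p = 1.19e-08. It had 12.9 ± 0.521 CPM against 25.8 ± 1.47 CPM, log2 fold change -1.0, adjusted p = 2.44e-10 with the mutant against JMJD1A(WT). In that comparison 1 of the 6 (16.7%) was lower and 1 higher, against 11.7% and 12.1% of all genes. Atoh8 was called higher with the mutant than with JMJD1A(WT) (log2 fold change 0.32), but not when any library of either group other than JMJD1A(H1122A) replicate 3 was left out.

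Of the other extracellular modulators of the pathway, 20 of 34 were tested in the knockdown. Of these, 11 (55%) were higher and 5 (25%) lower, with a median of 0.27, and the lower share was close to that of all genes (23.9%, against 22.3% higher). Cd109, for a TGF-beta co-receptor, had 33.8 ± 1.02 CPM against 12.9 ± 0.867 CPM, log2 fold change 1.40, adjusted p = 9.10e-13, and Thbs1, for the latent TGF-beta activator thrombospondin 1, had 152 ± 14.5 CPM against 63.1 ± 1.63 CPM, log2 fold change 1.26, adjusted p = 6.71e-16. The 5 lower calls became 3 without sh-Empty replicate 1 or 3. With JMJD1A(WT) against LacZ 6 of 21 tested (28.6%, against 4.52% of all genes) were lower, among them Fbn1 (225 ± 4.83 CPM against 298 ± 16.9 CPM, log2 fold change -0.40, adjusted p = 7.88e-09), for the microfibril protein fibrillin 1, and 1 (4.76%, against 4.98% of all genes) was higher, Thbs1 (log2 fold change 0.24). With the mutant against JMJD1A(WT) 7 (33.3%, against 12.1% of all genes) were higher, among them Fbn1 (log2 fold change 0.48) and Vasn (0.48), and 2 (9.52%, against 11.7%) lower, with Chrdl1 at a log2 fold change of -0.55. With the mutant against LacZ 4 (19.0%) were higher and 3 (14.3%) lower, against 4.78% and 4.46% of all genes; the former became 2 without LacZ replicate 2 and the latter 1 without JMJD1A(H1122A) replicate 3.

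Of the other intracellular regulators, 24 of 25 were tested. In the knockdown 5 (20.8%) were higher and 7 (29.2%) lower, close to the 22.3% and 23.9% of all genes, and Pmepa1, a TGF-beta target that dampens the signal, had 76 ± 4.85 CPM against 32.4 ± 1.35 CPM, log2 fold change 1.23, adjusted p = 1.43e-14. Pmepa1 is also in the list of TGF-beta targets above and enters the counts of both lists. Wwp2, a ubiquitin ligase gene, had 112 ± 7.57 CPM against 57.5 ± 3.34 CPM, log2 fold change 0.95, adjusted p = 2.43e-13 in the knockdown and 81.3 ± 0.771 CPM against 94.8 ± 8.59 CPM, log2 fold change -0.22, adjusted p = 0.00582 with JMJD1A(WT) against LacZ. With JMJD1A(WT) against LacZ 2 (8.33%) were lower and 0 higher, against 4.52% and 4.98% of all genes, and a single lower call was left when LacZ replicate 1 was dropped. With the mutant against JMJD1A(WT) 3 (12.5%) were higher and 5 (20.8%) lower, against 12.1% and 11.7% of all genes, and the latter became 3 without JMJD1A(H1122A) replicate 1 or 3 or JMJD1A(WT) replicate 1 or 3. With the mutant against LacZ 2 (8.33%) were higher and 2 lower, against 4.78% and 4.46% of all genes, and the latter became 1 without LacZ replicate 2 or JMJD1A(H1122A) replicate 1.

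Other ligands were rarely detected, as 5 of 24 were tested. In the knockdown 1 was higher, Inha (11.3 ± 2.13 CPM against 8.65 ± 0.866 CPM, log2 fold change 0.37, adjusted p = 0.0465), for the inhibin alpha chain, and 1 was lower, each 20% of those tested, near the 22.3% and 23.9% of all genes. The higher call was lost when replicate 1 or 2 of sh-Empty or replicate 1 or 3 of sh-Jmjd1a was left out. The lower calls became 0 when replicate 3 of sh-Empty or replicate 2 of sh-Jmjd1a was left out, and 2 when replicate 3 of sh-Jmjd1a was. In the rescue comparisons at most 1 of 5 (20%) was called in either direction, against 4.46% to 12.1% of all genes. Each lower or higher call with JMJD1A(H1122A) was lost without its replicate 2, and the lower call against LacZ also without LacZ replicate 2. A higher call with JMJD1A(WT) against LacZ appeared without JMJD1A(WT) replicate 3. Of other receptors and co-receptors 4 of 9 were tested, and in the knockdown 2 (50%) were higher and 1 (25%) lower, against 22.3% and 23.9% of all genes. Neo1, for the receptor neogenin, had 161 ± 2.40 CPM against 106 ± 4.22 CPM, log2 fold change 0.60, adjusted p = 2.92e-11, and Rgma, for a BMP co-receptor, had 104 ± 3.58 CPM against 150.2 ± 5.73 CPM, log2 fold change -0.53, adjusted p = 6.84e-10. The 2 higher calls became 1 without any 1 of the sh-Empty libraries or sh-Jmjd1a replicate 1 or 2. Neo1 was also higher with the mutant than with JMJD1A(WT) (log2 fold change 0.20), the 1 call of this list in the rescue comparisons. It made 25% of the 4 tested, against 12.1% of all genes higher in that comparison.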

How the data were processed

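Per the labels and the study's methods, reads were trimmed (fastp), aligned to mm9 (HISAT2) and counted per gene (featureCounts) by the authors; the deposited values are raw counts of 26301 Entrez Gene numbers in 15 libraries, not normalized. The strand setting and the separation of replicates by infection are not given in the sources used here.

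Members, lists and tests were chosen with earlier results of these data known. Symbols came from a RefSeq gene table, and coordinates and exon lengths from GENCODE M1 on NCBIM37. The 6 knockdown and 9 rescue libraries were fitted in separate models with edgeR 4.0.16 in R 4.3.3: TMM scaling, filterByExpr with a minimum count of 10, robust quasi-likelihood F tests and Benjamini-Hochberg adjustment over 12272 and 12557 genes. CPM was scaled within each set. The method was tested on simulated data. Members received values per library when called in the knockdown and a rescue comparison, when among the 5 largest differences of a comparison at a mean of at least 5 CPM, or when highest in RPKM for their role, and further called members were added after their values were seen. From the other lists, up to 3 genes with the largest called differences were named by the same kind of rule, and a few others after their values were seen. Some genes of the lists enter the counts but are not reported here by name. Alternatives were RLE scaling, DESeq2 1.42.0, other filters, the legacy method, all 15 libraries or only the groups compared in 1 fit, a threshold of 0.01, blocks by replicate number, and leaving out each library in turn; those for the other pathway lists were added after the data were seen. Replicate pairs differed beyond counting noise (chi-square per degree of freedom 2.06 to 5.22). Each library was treated as 1 replicate, though this spread does not show whether they came from separate infections. Precision is lowest for members near the filter, such as Eng and Acvr2b.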

Additional observations from a re-analysis of the deposited data

How the results depend on the processing

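Over 156 tests of a member in a comparison, 68 gave a call, of which 16 were lost in at least 1 alternative, and 8 further tests gained one; 0 changed sign among calls. Members called higher with JMJD1A(WT) against LacZ, 1 in the report, were 2 without the filter on low counts, where the added gene was Acvrl1, and 1 to 3 with 1 library left out. Members called lower with JMJD1A(H1122A) against LacZ, 4 in the report, were 2 at a threshold of 0.01 and 2 to 4 with 1 library left out. The other counts of members stayed within 1.5 times in every alternative. Of other extracellular modulators lower with JMJD1A(H1122A) against LacZ, 3 became 5 without the filter. The causes were not tested.

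The replicate numbers were shared between groups, but deviations of same-numbered libraries correlated at -0.044 to 0.054, so they were not taken as paired. With the replicate number as a block, 2 members were called higher with JMJD1A(WT) against LacZ, the calls of Grem1, Smad7 and Smurf2 in the knockdown were lost (adjusted p 0.0736, 0.0563 and 0.0583), Eng with JMJD1A(H1122A) against JMJD1A(WT) and Smurf2 with JMJD1A(WT) against LacZ gained one (adjusted p 0.0407 and 0.0430), and 6 of the other extracellular modulators were lower with JMJD1A(H1122A) against LacZ. Eng also gained that call without JMJD1A(WT) replicate 3 (log2 fold change 1.31, adjusted p = 0.0320). Depth limits the members with few counts, among them Bmp2, Bmp4, Bmp6, Bmp7 and Nog.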
